A study of Mus musculus with 2 samples.

Results

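Enteric and autonomic neuron genes were described in the pancreas of mouse embryos, as 8 genes of the 250 in the authors' deposited table. They are the receptor gene Ret and its ligand gene Gdnf, the homeobox gene Tlx2, the neuronal tubulin gene Tubb3, the noradrenaline enzyme gene Dbh, the nicotinic receptor subunit genes Chrna3 and Chrnb4, and the serotonin receptor subunit gene Htr3b. The short name neuron genes covers all 8 below, with Gdnf included only as the ligand gene of Ret. The members were chosen by symbol from a table that holds only genes the authors called changed, with their values in view, so their direction and size are a description of 2 libraries and not a test. Total RNA was sequenced from whole pancreas dissected at stage e12.5, as 1 library for each genotype. Control RNA was pooled from 6 pancreata, and the labels give its genotype only as control. The mutant library pooled 12 pancreata with the alleles Pdxcre;Gata4fl/fl;Gata6fl/fl, and the series title also names a Tom allele for the mutant mice. The Pdx1 promoter that drives Cre acts in pancreatic epithelial cells. In which cells the floxed Gata4 and Gata6 alleles were recombined was not tested. The table has no row for Gata4 or Gata6, and the genotype labels were not checked against these genes. Pooling leaves 1 value per gene and genotype, with no spread between embryos, and the depth is unknown beyond the statement in the labels that more than 20000000 reads were mapped.

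The neurons of the gut wall and of the autonomic ganglia arise from neural crest cells that migrate into the viscera. Crest cells bound for the gut carry the receptor tyrosine kinase Ret on their surface and follow GDNF, a growth factor secreted by the gut mesenchyme, which Ret binds together with a co-receptor of the GFRα family. Dbh is switched on in noradrenergic cells, and ganglion cells receive input through nicotinic receptors built from the α3 and β4 subunits. In the pancreas, crest cells enter from the foregut and form intrapancreatic ganglia and glia. The total RNA of a whole organ sums over all its cells, so more cells of a type and more RNA per cell cannot be told apart in any value below.

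Upstream sequences are shown for 4 members, because the 3 receptor subunit genes lie on chromosome 9, with Chrna3 and Chrnb4 side by side, and Dbh is the member with a transmitter-synthesis role. Each is the 250 bases before the transcription start, taken from RefSeq (GRCm38.p6), where 6 of the 8 members had an entry. Every one of these stretches was found unchanged in the mm9 genome, the build of the deposited table, and the mm9 positions are given. Dbh is at chr2:27020777-27021026 on the plus strand. The GENCODE vM1 annotation of mm9 starts Dbh at 27020753, so this stretch lies inside the gene as annotated there. On the minus strand are Htr3b at chr9:48773096-48773345, Chrna3 at chr9:54874370-54874619 and Chrnb4 at chr9:54896352-54896601. Capitals mark ATTA on either strand, the core recognised by many homeodomain factors, in Dbh and Htr3b. In Chrna3 and Chrnb4 they mark CANNTG, the E-box of basic helix-loop-helix factors such as Hand1.
Dbh: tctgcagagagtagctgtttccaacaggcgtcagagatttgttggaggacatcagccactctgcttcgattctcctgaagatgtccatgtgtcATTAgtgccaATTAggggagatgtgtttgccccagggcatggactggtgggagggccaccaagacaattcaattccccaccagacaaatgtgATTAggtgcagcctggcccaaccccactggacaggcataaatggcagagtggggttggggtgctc
Htr3b: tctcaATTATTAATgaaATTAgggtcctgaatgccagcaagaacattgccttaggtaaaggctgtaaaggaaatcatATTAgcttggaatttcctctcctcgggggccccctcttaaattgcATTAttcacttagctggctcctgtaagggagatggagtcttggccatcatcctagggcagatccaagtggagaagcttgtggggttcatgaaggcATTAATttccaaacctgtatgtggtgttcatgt
Chrna3: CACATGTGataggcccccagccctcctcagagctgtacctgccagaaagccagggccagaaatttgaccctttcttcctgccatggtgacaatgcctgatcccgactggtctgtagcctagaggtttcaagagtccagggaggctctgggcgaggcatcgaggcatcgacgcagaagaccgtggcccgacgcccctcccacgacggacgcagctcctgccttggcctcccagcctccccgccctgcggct
Chrnb4: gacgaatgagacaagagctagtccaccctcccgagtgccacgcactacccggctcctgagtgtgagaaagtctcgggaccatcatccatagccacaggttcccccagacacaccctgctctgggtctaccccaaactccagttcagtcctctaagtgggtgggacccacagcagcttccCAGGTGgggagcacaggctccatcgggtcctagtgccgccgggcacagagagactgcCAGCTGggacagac
The Dbh stretch holds ATTA at 3 positions, a number reached by 17.3% of 32851 upstream windows of the same length, and the Htr3b stretch holds it at 8 positions, some of which overlap, reached by 1.12%. Neither the Chrna3, the Chrnb4 nor the Tubb3 window holds ATTA, a motif found at least once in 54.9% of all windows. The Gdnf gene has 2 windows with 2 and 1 positions. G and C made up 44% of the Htr3b window, 53.2% of the Dbh window and 50.8% and 46.8% of the Gdnf windows. In Chrna3, Chrnb4 and Tubb3 they made up 63.2%, 61.2% and 68%. The shares of all windows were not adjusted for base composition. The E-box letters occur at 2 positions in each of Chrna3, Chrnb4 and Dbh, a number reached by 31.8% of all windows, and at 1 position in Htr3b and in each Gdnf window. One E-box of Chrna3 is overlapped by the other, at the far end of its window. These matches describe letters in a window and are not evidence that a factor binds there. Ret and Tlx2 are named without a sequence.

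All 8 genes were higher in the mutant library. FPKM (fragment numbers corrected for transcript length and library size) summed over the 8 was 18.0 in the control library and 93.3 in the mutant one, and single genes were between 3.57-fold (Gdnf) and 20.7-fold (Htr3b) higher. By a rule of size, genes counted as higher or lower where log2((mutant FPKM + 1)/(control FPKM + 1)) was at least 1 in size and 1 library had at least 1 FPKM. By that rule 7 of the 8 members were higher, against 48.4% of all 250 genes of the table. The remaining member, Htr3b, stayed under 1 FPKM in both libraries. Since the table was chosen on this contrast, nothing is read from that comparison. The authors' deposited table marked 0.888% of an estimated 14984 tested genes as significant and higher in the mutant. The median log2 ratio of the 8 was 1.93, beside 1.74 for the 133 table genes that were higher and 0.87 for all 250. When every ratio was centred on 1.11, the median over table genes with at least 1 FPKM, Tubb3 alone of the members passed the rule, and Htr3b turned to −0.18.

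**Figure D1:**
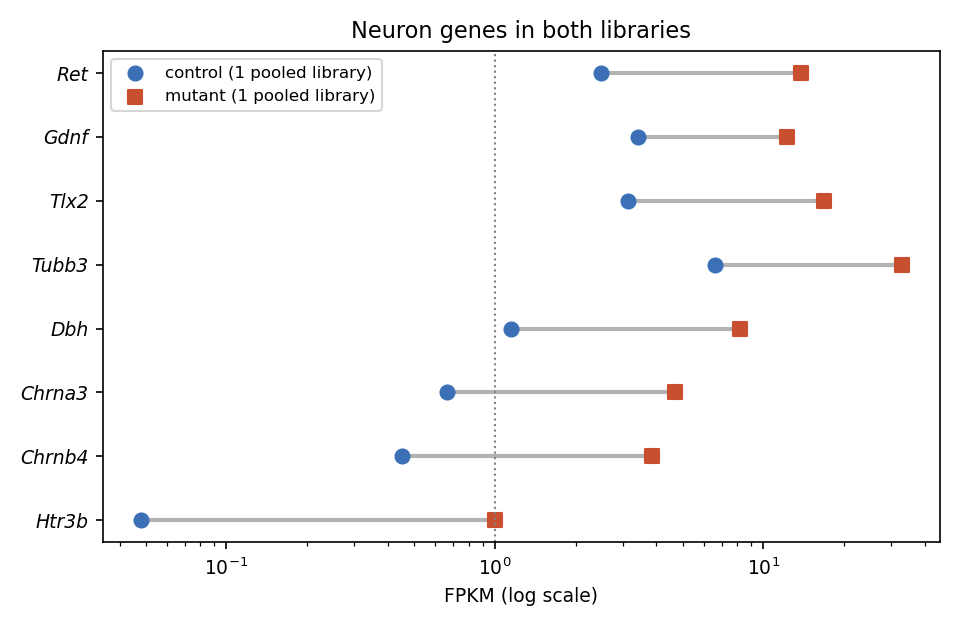
FPKM of the 8 neuron genes on a log scale in the control library (circles) and the mutant library (squares), with 1 pooled library each and a dotted line at 1 FPKM. Every square lies to the right of its circle, from 3.43 to 12.2 FPKM for Gdnf and from 0.0481 to 0.998 FPKM for Htr3b, which stays left of the line.

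The ligand and its receptor were both higher. Gdnf, which encodes the secreted ligand (mm9 chromosome 15, 7761011 to 7787575, plus strand), stood at 3.43 FPKM in the control library and 12.2 in the mutant one. This is the smallest of the 8 differences, at 3.57-fold, with a q of 0.0165 in the authors' deposited table, the highest q of the 8. Ret, the signalling receptor (chromosome 6, 118101766 to 118147762, minus strand), was 2.49 FPKM in the control library and 13.8 in the mutant one, 5.54-fold higher. Its q in the authors' deposited table was 0.000579. Both loci have the same start and end as in the GENCODE vM1 annotation of this build. Gdnf FPKM was 1.38 times that of Ret in the control library and 0.887 times in the mutant, so the order of ligand and receptor levels differed between the libraries.

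Of the list of 21 annotated GDNF family and pathway genes, 4 were in the table. By the rule of size, beside 48.4% of all table genes, all 4 were higher. Beside Gdnf and Ret these were Gfra1, the GDNF co-receptor, at 6.67 FPKM in the control library and 19.3 in the mutant one, and Etv4, an ETS factor that responds to Ret and Fgf signalling, at 6.79 and 21.0. Gfra1 was 2.90-fold higher, less than either member. Relative to Ret in the same library, Gfra1 was 2.68 times as high in the control and 1.40 times in the mutant. The ligand genes Nrtn, Artn and Pspn and the co-receptor genes Gfra2, Gfra3 and Gfra4 are outside the table and were not analysed here.

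Tlx2 encodes a homeodomain factor of enteric and other crest-derived neurons (chromosome 6, 83018319 to 83020219, minus strand). Its level was 3.14 FPKM in the control library and 16.8 in the mutant one, 5.36-fold higher. In the authors' deposited table its q was 0.00987. Of 18 annotated regulators of enteric and autonomic neurons, 6 were in the table. By the rule of size 5 were higher and 1 lower, beside 48.4% and 45.2% of all table genes. Hand1, a helix-loop-helix factor of sympathetic cells and also of visceral mesenchyme, was 8.34 FPKM in the control library against 35.3 in the mutant one. Gata3, a relative of the targeted factors that sympathetic neurons require, was 0.546 against 4.31. The exception was Prox1, which is also made in pancreatic epithelium, at 10.2 FPKM in the control library and 2.81 in the mutant one. Sox10, the factor of migrating crest cells and glia, was 2.96 against 12.6 FPKM, 4.26-fold higher, and was the 1 gene of 12 annotated crest and glia genes in the table.

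Tubb3, the β-tubulin of differentiating neurons (chromosome 8, 125935464 to 125945910, plus strand), had the highest level of the 8 in each library. It stood at 6.62 FPKM in the control library and 32.8 in the mutant one, 4.95-fold higher, with a q of 0.000579 in the authors' deposited table. Its locus overlaps the predicted coding gene Gm20388, and Mc1r ends 0.821 kb before it. The sources used here do not say whether reads were counted by strand. The other 7 members overlap no other protein-coding gene. Among 34 annotated pan-neuronal genes the table held 5. Of these, 4 were higher and 1 lower by the rule of size, beside 48.4% and 45.2% of all table genes. Elavl3, a neuronal RNA-binding protein gene, was 0.352 FPKM in the control library and 2.76 in the mutant one. The stathmin gene Stmn3 was 1.60 against 9.17 and the adhesion gene L1cam, which takes part in crest cell migration in the gut, was 0.907 against 4.35. Isl2, a LIM homeodomain gene on the list of sensory and motor neuron genes, was 3.24 against 16.2, while Ntrk2, the receptor of brain-derived neurotrophic factor, was 5.34 against 1.20.

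**Figure D2:**
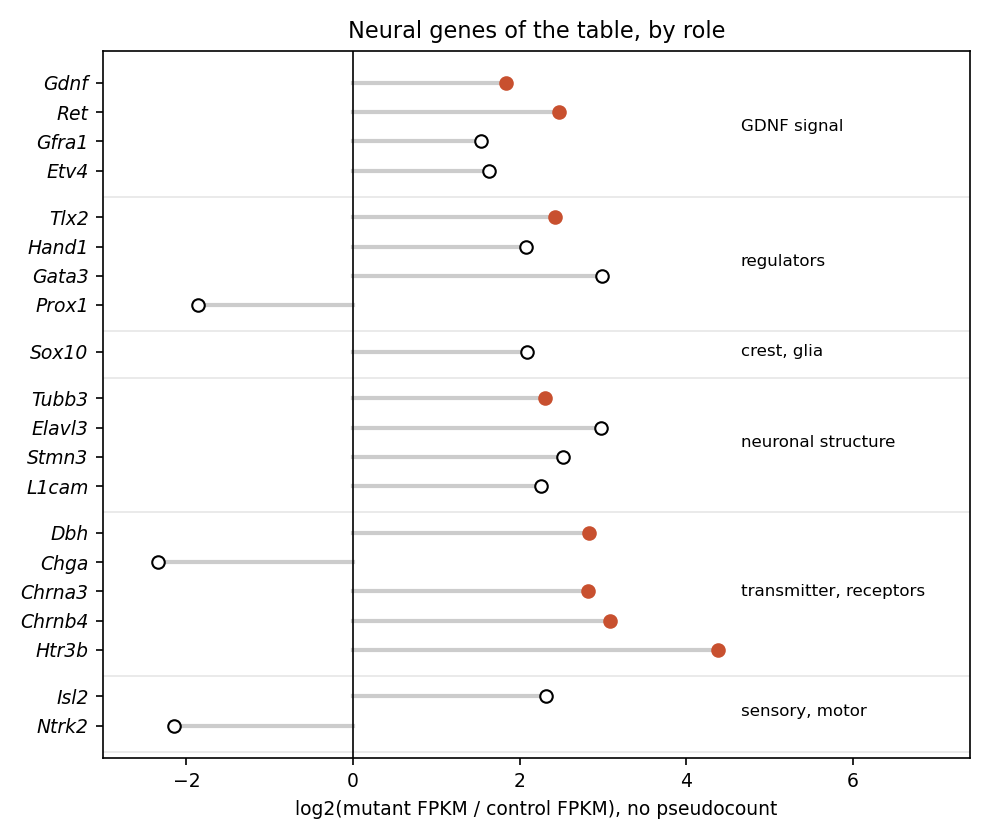
The log2 ratio of mutant to control FPKM, without a pseudocount, for the 8 neuron genes (filled points) and 12 other neural-list genes in the table (open points), grouped by role. Of these, 8 members and 9 others lie to the right of 0, and Prox1, Chga and Ntrk2 lie to the left.

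Dbh, dopamine beta-hydroxylase, converts dopamine to noradrenaline (chromosome 2, 27021027 to 27038724, plus strand). The gene was at 1.15 FPKM in the control library and 8.17 in the mutant one, 7.11-fold higher, and its q in the authors' deposited table was 0.00278. Of 14 annotated genes of catecholamine synthesis and storage, the table holds Dbh and Chga alone. Chga, a granule protein gene shared by chromaffin and endocrine cells, was lower in the mutant, at 19.9 FPKM in the control library and 3.91 in the mutant one. Th and Ddc, which act before Dbh in the same pathway, are outside the table, as are all 4 annotated genes of acetylcholine synthesis and storage and all 12 enteric peptide and transmitter enzyme genes. Their values were not analysed here.

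Chrna3 and Chrnb4 encode the α3 and β4 subunits of the ganglionic nicotinic acetylcholine receptor. They lie 1.60 kb apart and in the same orientation on chromosome 9 (Chrna3 at 54859150 to 54874366, Chrnb4 at 54875963 to 54896351, minus strand). Chrna3 was 0.663 FPKM in the control library and 4.68 in the mutant one, 7.05-fold higher. Chrnb4 was 0.453 FPKM in the control library and 3.84 in the mutant one, 8.48-fold higher. Chrna3 FPKM was 1.47 times that of Chrnb4 in the control library and 1.22 times in the mutant, so the subunit levels stayed near each other in both. The q values in the authors' deposited table were 0.00499 for Chrna3 and 0.00171 for Chrnb4. These are the only 2 of 16 annotated nicotinic subunit genes in the table. Chrna5, the third gene of this cluster, ends 3.56 kb from Chrna3 and is outside it. The muscle subunit genes Chrna1, Chrnd and Chrng are outside it as well. Both called subunit genes lost their call with a pseudocount of 5, when 5 FPKM was the minimum, with 1 FPKM required in both libraries, at 4-fold and with centring.

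Htr3b encodes the B subunit of the serotonin-gated ion channel, which needs the A subunit to form a channel (chromosome 9, 48743113 to 48773095, minus strand). Its level was 0.0481 FPKM in the control library and 0.998 in the mutant one, the lowest of the 8 in each library. The 20.7-fold difference is the largest of the 8, and it rests on a control value close to 0 whose fragment number is unknown. On the log2(FPKM + 1) scale the ratio was 0.93, the smallest of the 8, whereas the authors' deposited table gives a log2 fold change of 4.37 with a q of 0.00411. Htr3b was the 1 of 14 annotated serotonin receptor genes in the table. Its neighbour Htr3a, the A subunit gene 23.9 kb away, is outside it.

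The plain fold was larger in members with a lower control level. Spearman's rho between control FPKM and fold was −0.95 over the 8 genes and −0.77 over the 133 higher genes of the table. Each fold holds the control value in its denominator, so the measures are not independent. On the log2(FPKM + 1) scale the sign was opposite, at 0.62 over the 8 genes and 0.24 over the 133. That ratio holds the control value too, and its scale shrinks differences of low genes, so neither sign is read as a result. By plain fold the members ranked from 15 (Htr3b) to 114 (Gdnf) of the 133 higher genes, with Ret at 82, Tlx2 at 89 and Tubb3 at 94. The order of levels was nearly the same in both libraries. Tubb3 was highest and Dbh, Chrna3, Chrnb4 and Htr3b followed each other at the low end in both, while Gdnf stood above Tlx2 and Ret in the control and below them in the mutant. With 1 value per library, neighbours in that order cannot be separated.

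**Figure D3:**
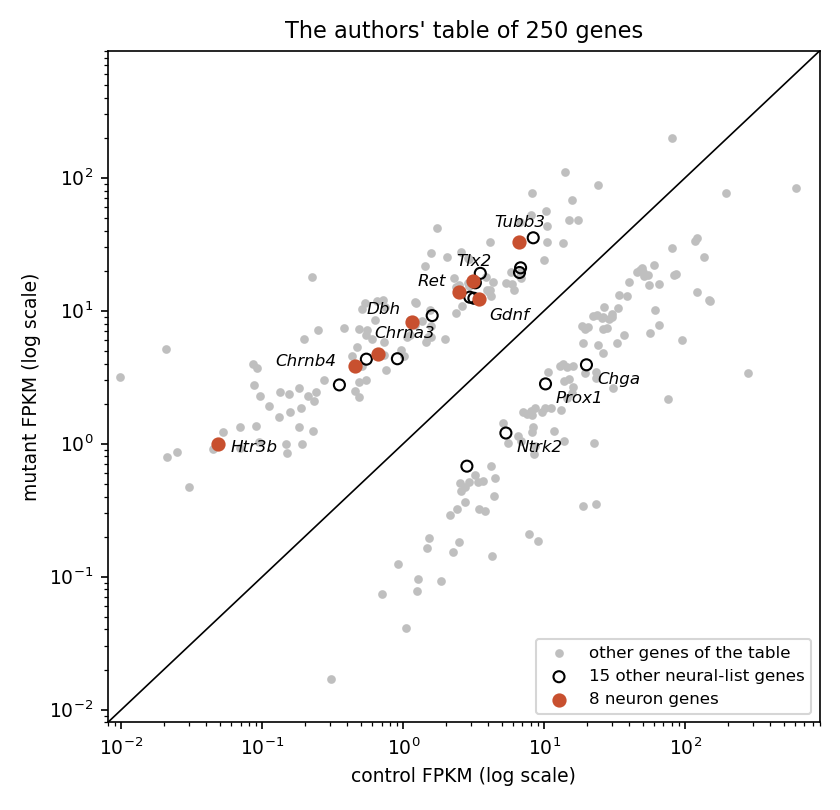
Control FPKM (x axis) against mutant FPKM (y axis) for the 250 genes of the authors' table, both on log scales, with the 8 neuron genes filled, the 15 other neural-list genes open, the rest in grey, and a line of equal levels. The 8 lie above the line among 133 genes, and the 4 lower neural-list genes lie below it. The empty band along the line reflects that only called genes are in the table.

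Levels were also set against Tubb3 within each library, which removes any difference in scaling between the libraries. Ret was 37.6% of Tubb3 in the control library and 42.0% in the mutant one. Tlx2 was 47.4% and 51.3%. Both genes were thus within 1.12 times of their control share. Dbh was 17.4% of Tubb3 in the control library and 24.9% in the mutant one, Chrna3 was 10.0% and 14.3%, and Chrnb4 was 6.84% and 11.7%. Dbh, Chrna3 and Chrnb4 were therefore higher relative to Tubb3 by 1.43, 1.42 and 1.71 times. The pan-neuronal gene Elavl3 was higher as well, by 1.59 times, at 5.32% and 8.43%. A higher share was thus not particular to transmitter and receptor genes. L1cam and Isl2 stood at 0.967 and 1.01 times their control share. Htr3b was 0.727% and 3.05%. Gdnf went the other way, from 51.8% of Tubb3 in the control to 37.3% in the mutant, as did Gfra1, at 101% and 59.0%, and Sox10, at 44.8% and 38.5%. Stmn3 was then taken in place of Tubb3, a choice made after the values were seen. The log2 change of Stmn3 relative to Tubb3 was 0.21, so the exchange lowers every relative change by that same amount. It is thus no separate check. Dbh, Chrna3, Chrnb4 and Htr3b stayed higher and Gdnf lower. Ret and Tlx2 changed sign, at −0.05 and −0.09 on the log2 scale. Set against the smooth muscle actin gene Acta2, Gdnf was at a ratio of 0.143 in the control library and 0.138 in the mutant one, and against the enteric smooth muscle actin gene Actg2 at 0.423 and 0.233, so the comparison with smooth muscle differed with the gene chosen. None of these ratios has a measure of error.

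**Figure D4:**
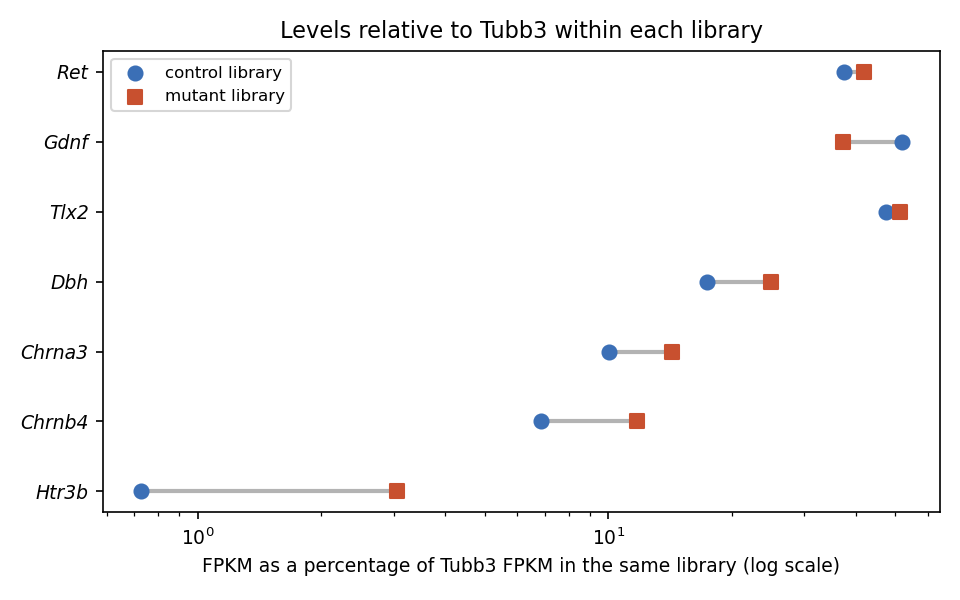
FPKM of 7 neuron genes as a percentage of Tubb3 FPKM in the same library, on a log scale, for the control (circles) and the mutant (squares). Ret and Tlx2 have nearly overlapping points, Dbh, Chrna3, Chrnb4 and Htr3b have the square to the right, and Gdnf has it to the left, at 37.3% against 51.8%.

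Over all 162 annotated genes of the neural lists that are not members, 15 were in the table, with 11 higher and 4 lower. Of all 250 table genes, 48.4% were higher and 45.2% lower by the rule of size. Nothing is read from this comparison. The 11 higher genes were between 2.90-fold (Gfra1) and 7.90-fold (Gata3) higher. None of the 14 genes of central nervous system neurons was in the table. As the table holds only 250 of an estimated 14984 tested genes, nothing is read from that absence. The 1 gene present of 9 chromaffin and adrenal cortex genes was Chga, which was lower.

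Markers of some other cell types were higher like the neuron genes, and those of others were lower. By the rule of size 48.4% of all table genes were higher and 45.2% lower. Of 12 gut smooth muscle genes, 9 were in the table, 8 of them higher (Hand1, counted above too, among them), and their summed level was 82.7 FPKM in the control library and 251 in the mutant one. Acta2 was 24.0 against 88.8 FPKM and the enteric smooth muscle actin gene Actg2 was 8.10 against 52.4, while Des was lower at 33.4 against 10.5. Gut epithelial genes were higher in 8 of 8 cases out of 11, with a sum of 4.16 FPKM in the control library and 64.4 in the mutant one, and the intestinal factor Cdx2 was 0.506 against 10.2. Skeletal muscle genes were higher in 7 of 7 cases out of 16, with sums of 1.37 and 39.7 FPKM. Pancreatic epithelial genes were lower in 7 of 7 cases out of 12, with sums of 1065 and 109.9 FPKM, Chga and Prox1 among them. Immune genes were lower in 4 of 4 cases out of 7, with sums of 168 and 29.2 FPKM. The table holds no endothelial gene of 7 and no erythroid gene of 8, and it lists no gene at 0. Nothing is read from these absences either. The part of these cell types in the neuron result was not tested.

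The table gene nearest over log2(FPKM + 1) in both libraries was Cd55 for Ret, Isl2 for Tlx2, Hand1 for Tubb3, Onecut2 for Dbh, Myh11 for Chrna3, Gpbar1 for Chrnb4 and Msln for Htr3b. The distances ran from 0.028 for Chrna3 and Myh11, at 0.635 FPKM in the control library and 4.72 in the mutant one, to 0.31 for Tubb3 and Hand1. With 2 libraries this likeness is a match of levels only.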

How the data were processed

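RNA-seq values came from 1 pooled library per genotype. Per the labels, reads were aligned with TopHat 2.0.4 to mm9, with 4 mismatches and up to 10 hits per read. CASAVA 1.8.2, Cufflinks and DESeq are further tools in the submitters' processing notes. The sources used here give neither the transcript annotation nor the use of strand. The authors deposited 1 table of 250 genes, all marked significant, with an FPKM value per library. Beside these stand the authors' deposited log2 fold change (mutant over control, without pseudocount), a test statistic (a score of opposite sign), p-values and q-values. Those q-values compare 2 libraries and not genotypes. The sources used here do not say which program made them.

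From the FPKM values, log2((mutant + 1)/(control + 1)) was computed, a scale that shrinks differences of low genes, and genes were called at a size of 1 (a fold of 2) with at least 1 FPKM in 1 library. No test was run. The number of tested genes was estimated from the deposited p and q values by the Benjamini-Hochberg relation. Loci were compared with GENCODE vM1, converted to 1-based starts. The members and the 19 gene lists were chosen with earlier results of these data known. Genes named are the members, all neural-list genes of the table, the nearest gene to each member, and examples from the other lists. Some of these enter counts and medians and are not reported here by name. Genes chosen for within-library ratios were picked with their values in view. Python 3.11.15, pandas 2.3.3, numpy 2.4.6, scipy 1.17.1 and matplotlib 3.10.9 were used, and the calling rule was tested on simulated data.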

Additional observations from a re-analysis of the deposited data

How the results depend on the processing

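The 7 higher members became 4 at 4-fold and 1 with centring on the table median of 1.11. With the other alternatives the number was between 5 and 7. Of the other neural-list genes, the 11 higher became 2 at 4-fold, 1 with centring and 5 with a q of at most 0.01, and the 4 lower became 1 with each of 4-fold, a pseudocount of 5 and that q. Over the whole table, the 121 higher genes became 50 at 4-fold, 38 with centring, 70 with 1 FPKM in both libraries and 69 with a pseudocount of 5. The 113 lower genes became 37 at 4-fold, 75 with a pseudocount of 5 and 66 with a q of at most 0.01. By construction these alternatives shrink ratios, shift them alike or set a stricter limit. The median log2 ratio of the members, 1.93, was 2.53 with a pseudocount of 0.1, 1.07 with 5, 2.64 with the authors' deposited log2 fold change and 0.81 with centring. It was 2.09 over the members left by a minimum of 5 FPKM or by 1 FPKM in both libraries, 2.08 with a q of at most 0.01 and 1.77 without Tubb3, whose locus overlaps another coding gene. Centring turned Htr3b to −0.18, the one member whose sign changed, and taking Stmn3 in place of Tubb3 turned the relative changes of Ret and Tlx2 to −0.048 and −0.095. No paired analysis was possible because there is 1 library per genotype, and leaving out a replicate was not possible either. Depth limits Htr3b, Chrna3 and Chrnb4 most, which were under 1 FPKM in the control.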

Other observations

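Further genes with known roles in neurons are in the table and on none of the lists, and those named here were chosen after their values were seen. Chrm2, the M2 muscarinic acetylcholine receptor gene, which smooth muscle also uses, was 1.22 FPKM in the control library and 11.7 in the mutant one. Nes, an intermediate filament gene of neural precursors and other immature cells, was 13.6 against 32.5. Nrp2, a semaphorin and VEGF receptor gene, was 15.8 against 67.5, and Slit2, a secreted guidance cue gene, was 22.3 against 9.16. The kinesin gene Kif5c was 1.45 against 5.82. Both kainate receptor subunit genes in the table differed in opposite directions, with Grik3 at 0.485 against 2.23 FPKM and Grik1 at 4.47 against 0.551. Slitrk5, a neuronal adhesion gene, was 10.2 against 1.85. Srrm4, a neural splicing regulator gene, was 0.230 against 1.25 and the adhesion gene Chl1 was 0.147 against 0.995, and neither reached the 2-fold limit on the log2(FPKM + 1) scale.

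The authors' deposited table has a last column with short free-text notes in 12 rows. The one naming a serotonin receptor stands in the row of Akap6, a kinase anchoring protein gene, and the row of Htr3b has none.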
